A study of Rattus norvegicus with 59 samples.

Results

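The genes described here are 7 genes of the myelin sheath, Mbp, Mag, Mog, Cnp, Mobp, Mal and Ugt8, followed by region and by line as a measure of white matter in each dissection. They were chosen by name: every probe set whose only gene symbol in the array annotation was one of these was taken, which gave 14 probe sets of the 8740 on the array that are not controls, and 7 genes of 4736 with a probe set of their own. Of the 14 probe sets, 13 passed a filter that dropped the dimmest 40% of probe sets by mean signal over all arrays, so that 13 of 5244 tested probe sets were members. The probe set that did not pass is a second one for Ugt8.

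The study measured brain RNA of inbred alcohol-preferring (iP) and inbred alcohol-nonpreferring (iNP) rats with Affymetrix arrays in 5 regions: cortex, striatum, hippocampus, amygdala and nucleus accumbens. All rats were adult males, kept in pairs with free food and water, accustomed to handling before decapitation, and given no alcohol or other agent that the labels record. Each region held 6 iP rats, numbered 1 to 6, and 6 iNP rats, numbered 7 to 12, except the cortex with 5 iP rats, which left 59 arrays from 12 rats, each rat labelled and hybridised separately. Each line is one inbred strain, so a line difference cannot be told apart from any other difference between these 2 strains. The source label names iNP on every array, and the line was therefore taken from the title and the genotype label.

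Myelin is the lipid-rich membrane that oligodendrocytes wrap around axons in the brain, and it is most dense in white matter tracts. Its compact layers are held together by small proteins such as myelin basic protein (Mbp), its inner and outer faces carry adhesion molecules of the immunoglobulin family, and its lipids need dedicated enzymes. In a dissected block the level of these transcripts depends on how much tract is included, and in bulk RNA fewer oligodendrocytes and less myelin RNA per cell cannot be told apart.

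The start-site sequences of the members were also described, outside the measurements. RefSeq (assembly GRCr8) gave 250 bases upstream of a start for 6 of the 7 members, with 2 starts for Mbp. The second Mbp start and its window lie inside the annotated Mbp gene. Short motifs were searched on both strands, with no allowance for mismatches, among 33469 promoters. They were CTGGCAC and CTGGTAC, both known as binding sequences of MYRF, the oligodendrocyte factor that activates myelin genes, ACAAAG, the core of the SOX family that includes Sox10, and CAGCTG, an E-box. The motifs and the stretches printed were chosen after the promoter sequences and matches had been seen, and a match is a description and not a site. The windows of Ugt8 and of the first Mbp start held no match to any of these motifs. CTGGCAC was in 3.78% of all promoters and in the windows of Mag, where the match lies inside the annotated gene, Mal and Cnp. It is in capitals below, as its reverse complement GTGCCAG in Mal, at positions -150 to -96 from the start, chr3:135341519-135341573 (minus strand), and in Cnp, at positions -148 to -94 from the start, chr10:86011356-86011410 (plus strand). ACAAAG was in 16.3% of promoters, and the windows of Mag, Cnp and the second Mbp start held 1 match each. The Mobp window held 8 matches to ACAAAG, all as CTTTGT, where 2 of the 33469 promoters, that of Mobp included, held as many. The 7 of these that lie outside the annotated gene are in capitals in the stretch at chr8:128746982-128747116 (plus strand).
Mal: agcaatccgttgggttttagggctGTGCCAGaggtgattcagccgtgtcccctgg
Cnp: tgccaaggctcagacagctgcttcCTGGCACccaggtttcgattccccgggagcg
Mobp: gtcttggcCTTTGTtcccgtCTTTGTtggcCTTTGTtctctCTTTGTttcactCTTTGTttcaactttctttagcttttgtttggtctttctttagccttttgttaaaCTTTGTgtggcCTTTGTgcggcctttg
CAGCTG was in the windows of Cnp and of the second Mbp start, against 12% of promoters, and CTGGTAC was in none of the member windows, against 1.78% of promoters.

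The arrays were scaled alike, with a trimmed mean signal of 1000 on each of the 59 and a median signal between 251 and 391. Marker lists were read for some regions. All 6 tested genes of a list for striatal projection neurons were higher in the striatum and in the accumbens, where 6.27% and 12.3% of all tested probe sets were. All 4 of a hippocampal list were higher in the hippocampus, where 10.8% were. Of 2 tested cortical genes, 2 were higher in the cortex, where 7.86% were, and 1 was higher in each of the striatum, hippocampus and accumbens. No marker list for the amygdala was used. One array stood apart in RNA quality: in cortex iP rat 5 the log2 ratio of the 3′ to the 5′ Gapdh probe set was 6.14, where the median was 0.20 in the amygdala and between 0.01 and 0.09 in the other four regions. A further array, amygdala iP rat 1, correlated more closely with the cortex arrays than with the other amygdala arrays over the tested probe sets of other genes. Its correlation was 0.954 with the cortex and 0.930 with the amygdala. In that comparison 4 of the 59 arrays lay nearest a region other than the labelled one. Cortex iP rat 5 was also among them, nearest the amygdala at 0.832, against 0.811 with the cortex. The others were amygdala iNP rat 7, nearest the accumbens, and accumbens iP rat 4, nearest the amygdala. The cause was not tested. Some results that rest on cortex iP rat 5 and amygdala iP rat 1 are given with and without these arrays. Others, such as the mean index of each region, are given only with them.

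**Figure D1:**
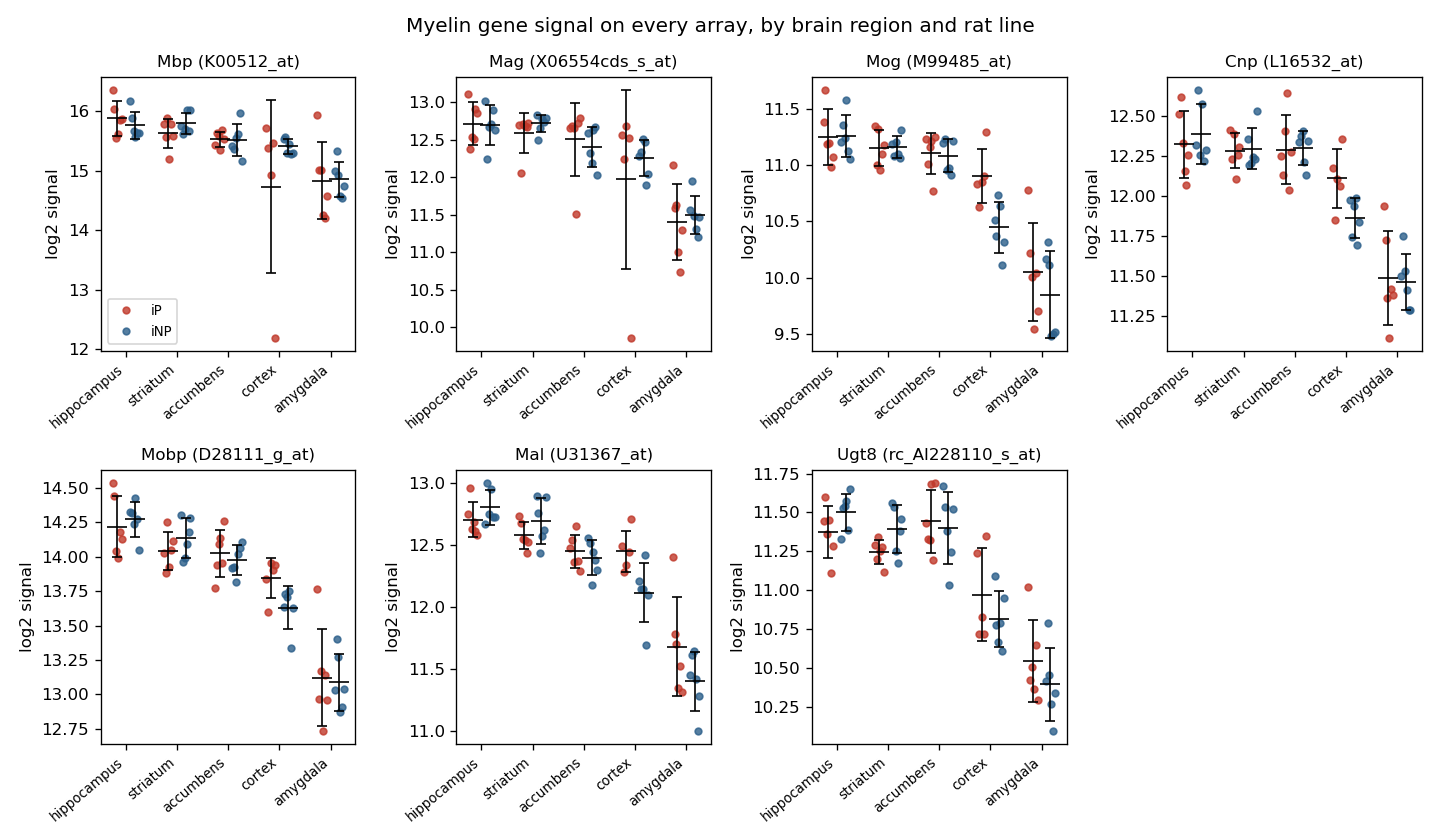
Log2 signal on every array (points) for the brightest probe set of each of the 7 genes, by brain region, with iP rats in red and iNP rats in blue and the mean and SD of each group in black. In each panel the amygdala lay lowest, the cortex next, and the hippocampus, striatum and accumbens overlapped at the top. The low points of Mbp (12.18) and Mag (9.85) in the cortex are both iP rat 5.

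By the brightest probe set of each, all 7 member genes had their lowest mean signal in the amygdala and their highest in the hippocampus. All 13 tested probe sets were lower in the amygdala than in the mean of the other four regions (limma, rat as a block, Benjamini-Hochberg adjusted p under 0.05, called a change from here on), where 12.8% of all tested probe sets were. The median difference was -0.97 on the log2 scale, against 0.01 over all tested probe sets. In 6 of the 13 the difference was also larger than 1 on the log2 scale, a size that 1.51% of all tested probe sets passed in either direction.

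The Gapdh ratio was set against the myelin genes among the arrays of the amygdala only, and the other regions were not computed. Within the amygdala the myelin index, the mean over the 7 genes of each array's log2 signal less the mean of all arrays, was lower where the log2 ratio was higher, at r = -0.83 and rho = -0.71 over 12 arrays of 12 rats. The relation was described after the values were seen. It was r = -0.70 without the arrays with the most distant ratios, iP rats 1 and 5. Without iP rat 1 alone it was r = -0.64 and rho = -0.63 over 11 arrays. Rat 4, with the lowest index of -1.07, had a ratio of 0.35, and rat 1, with the highest of 0.02, had -0.15. With the ratio as a covariate and without the 2 arrays that stood apart, all 13 probe sets were lower in the amygdala, with a median of -1.02. The part of RNA quality in the amygdala difference was not tested.

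Mbp encodes the basic protein that binds the inner faces of the compacted membrane. Its log2 signal ran from 14.20 to 15.95 (median 14.84) in the amygdala, from 12.18 to 15.72 (median 15.38) in the cortex and from 15.16 to 15.97 (median 15.54) in the accumbens. The striatum lay between 15.20 and 16.03 (median 15.73), and the hippocampus between 15.55 and 16.37 (median 15.76). The amygdala was lower than the other four by -0.70 ± 0.15 (SE, n = 59 arrays, adjusted p = 0.000375), a 1.62-fold difference. The amygdala overlapped the other regions, since its highest array was rat 1 and the lowest array of all was cortex rat 5. Without these 2 arrays the difference was -0.85 ± 0.08, and 6 of the 11 remaining amygdala arrays lay below every other array.

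Mobp, a small basic protein of oligodendrocytes that is likewise part of compact myelin, has 4 probe sets. D28111_g_at, the brightest, ran from 12.73 to 13.77 (median 13.04) in the amygdala, from 13.33 to 13.95 (median 13.73) in the cortex and from 13.77 to 14.26 (median 13.99) in the accumbens. It ran from 13.88 to 14.30 (median 14.07) in the striatum and from 13.99 to 14.54 (median 14.26) in the hippocampus. In 10 of 12 rats the amygdala value was below every array of the other regions, and the difference was -0.91 ± 0.06 (adjusted p = 3.16e-16). The other Mobp probe sets were lower too, D28111_at by -0.95 ± 0.06, D28110_g_at by -1.45 ± 0.16 and D28110_at by -1.43 ± 0.13, so the sizes for one gene ranged from 1.88-fold to 2.72-fold.

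Mal encodes a proteolipid of myelin membranes. It ran from 11.00 to 12.40 (median 11.48) in the amygdala, from 11.69 to 12.70 (median 12.28) in the cortex and from 12.18 to 12.65 (median 12.41) in the accumbens. It ran from 12.43 to 12.89 (median 12.59) in the striatum and from 12.57 to 13.0 (median 12.72) in the hippocampus, where every one of 12 rats was above its own accumbens and above its own amygdala. The amygdala difference was -0.97 ± 0.07 (adjusted p = 2.32e-16), or 1.97-fold.

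Mag, an adhesion molecule of the membrane next to the axon, has 3 probe sets that disagreed in size. X06554cds_s_at ran from 10.73 to 12.16 (median 11.47) in the amygdala, from 9.85 to 12.68 (median 12.33) in the cortex and from 12.24 to 13.10 (median 12.69) in the hippocampus. The striatum lay between 12.05 and 12.82 (median 12.71), and the accumbens between 11.51 and 12.79 (median 12.63). The amygdala was lower by -1.04 ± 0.13 (adjusted p = 2.80e-08), and its arrays overlapped those of the cortex, accumbens and striatum but not those of the hippocampus.

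The amygdala difference of the other Mag probe sets was -0.73 ± 0.07 for M22357_g_at and -2.42 ± 0.28 for M22357_at, both from one transcript record. The size for M22357_at is not an exact fold, since 5 of its 12 amygdala values lay under a signal of 64 (6 on the log2 scale) and no detection call was used; with the floor raised to 64 it was -2.28. M22357_at spread most of the member probe sets among rats in the amygdala. It measured 9.46, 8.51, 8.79, 5.06, 5.17 and 5.92 in iP rats 1 to 6, and 8.44, 9.16, 7.68, 5.88, 5.91 and 7.06 in iNP rats 7 to 12. In the hippocampus, striatum and accumbens the same probe set stayed between 9.09 and 10.71. Both lines held high and low amygdala values, and the SD over the 12 rats was 1.62 against 0.33 in the hippocampus.

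Mog encodes the outermost glycoprotein of the sheath, and both of its probe sets were lower in the amygdala. M99485_at ran from 9.48 to 10.78 (median 10.02) in the amygdala, from 10.11 to 11.30 (median 10.63) in the cortex and from 10.77 to 11.25 (median 11.18) in the accumbens. It ran from 10.96 to 11.35 (median 11.14) in the striatum and from 10.98 to 11.67 (median 11.21) in the hippocampus. The amygdala was lower by -1.09 ± 0.08 (adjusted p = 3.04e-15). L21995_s_at was lower by -1.18 ± 0.08 (adjusted p = 2.32e-16), and it was the member probe set in which all 12 amygdala arrays, at most 10.47, lay below every array of the other regions, at least 10.63.

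Cnp and Ugt8 encode enzymes, the cyclic nucleotide phosphodiesterase of non-compact myelin and the transferase that makes galactocerebroside, the main myelin glycolipid. Cnp ran from 11.11 to 11.94 (median 11.42) in the amygdala, from 11.69 to 12.36 (median 11.98) in the cortex and from 12.04 to 12.67 over the accumbens, striatum and hippocampus. It was lower in the amygdala by -0.75 ± 0.06 (adjusted p = 1.94e-14). Ugt8 (rc_AI228110_s_at) ran from 10.09 to 11.02 (median 10.42) in the amygdala, from 10.61 to 11.35 (median 10.79) in the cortex and from 11.03 to 11.69 over the other three regions. Its amygdala difference was -0.80 ± 0.06 (adjusted p = 2.95e-14), and for both enzymes 9 of 12 amygdala arrays lay below all arrays of the other regions.

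The second Ugt8 probe set, U07683_at, did not follow this order. Its signal lay at or near the floor of 16 (4 on the log2 scale), between 4.00 and 6.48 over all 59 arrays, and its mean ranked at percentile 11.4 of all probe sets. Its mean was highest in the amygdala, 5.58 ± 0.86 (SD, n = 12), and it was not tested.

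**Figure D2:**
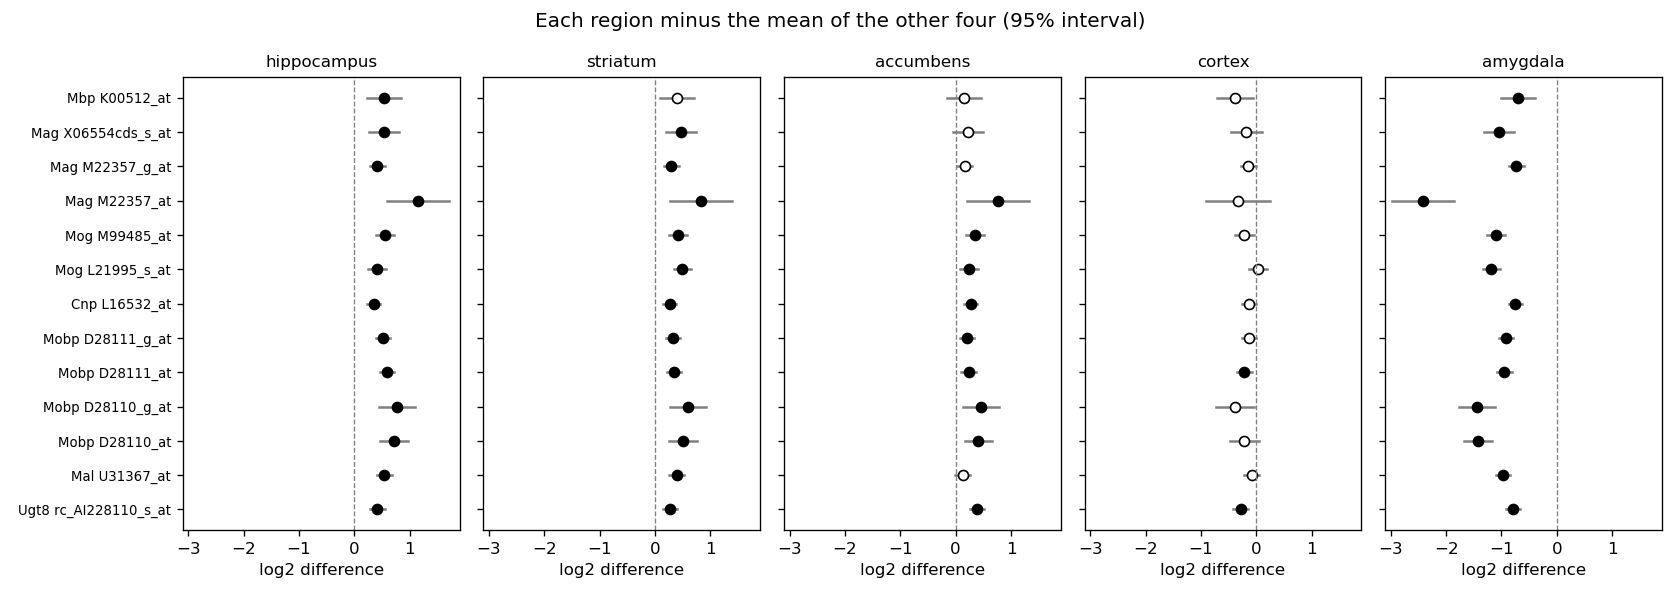
Log2 difference of each region from the mean of the other four for the 13 tested probe sets, with 95% confidence intervals; filled points passed an adjusted p of 0.05. All 13 points were filled and below 0 in the amygdala and filled and above 0 in the hippocampus, while 2 were filled in the cortex.

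All 13 probe sets were higher in the hippocampus than in the other four regions, against 10.8% of all tested probe sets, with a median difference of 0.53 and a range from 0.35 ± 0.06 for Cnp to 1.14 ± 0.28 for Mag M22357_at. Set directly against the amygdala, all 13 were higher in the hippocampus (23.2% of all tested probe sets were called in either direction), by a median of 1.23. In each of the 13 the hippocampus was higher in 12 of 12 rats. Counts of rats or arrays of this kind, also for single genes above, were not taken over all tested probe sets. They therefore do not set the members apart. The sizes ran from 1.84-fold for Cnp and 1.97-fold for Mbp to 3.42-fold for Mobp D28110_g_at, leaving aside Mag M22357_at with its dim amygdala values.

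Markers of other cells that were higher in the hippocampus included Ttr, the transthyretin of choroid plexus, by 4.40 ± 0.34, with a signal from 621 to 47840 on the hippocampal arrays and at most 449 elsewhere. All 4 tested hippocampal neuron genes were higher too, by a median of 1.41, with a summed signal from 2660 to 3853 against 951 to 1910 elsewhere. Of 9 general neuronal genes 3 were higher and 2 lower, of 7 astrocyte genes 1 was higher, and of 5 microglial genes 2 were lower. Of all tested probe sets 10.8% were higher in the hippocampus and 12.5% lower. The part of these markers in the hippocampal difference of the myelin genes was not tested.

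In the striatum 12 of 13 probe sets were higher than in the other regions, against 6.27% of all tested, with a median of 0.39. The remaining one was Mbp, at 0.39 ± 0.15 (adjusted p = 0.0746), and without the 2 arrays all 13 passed. In the accumbens 9 of 13 were higher, against 12.3% of all tested, with a median of 0.25. The 4 that did not pass were Mbp at 0.16 ± 0.15, Mal at 0.13 ± 0.07 and the Mag probe sets X06554cds_s_at at 0.22 ± 0.13 and M22357_g_at at 0.16 ± 0.07.

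The cortex lay between these regions and the amygdala. Of 13 probe sets, 2 were lower than in the other four regions, against 9.19% of all tested: Ugt8 by -0.28 ± 0.07 (adjusted p = 0.00114) and Mobp D28111_at by -0.21 ± 0.07 (adjusted p = 0.0212). Without the 2 arrays that stood apart 4 were lower, with Mog M99485_at at -0.28 ± 0.07 and Cnp at -0.18 ± 0.06 added. Without iNP rat 11 or iNP rat 12 in all regions, 1 was lower. The mean of the other four contains the amygdala, and the direct pairs separate the levels more clearly. Against the amygdala the cortex was higher in 12 of 13 probe sets, where 22.6% of all tested were called, 10.3% higher and 12.3% lower. The exception was Mbp at 0.25 ± 0.20 (adjusted p = 0.394), which was 0.62 ± 0.11 without the 2 arrays. Against the accumbens the cortex was lower in 8 of 13, where 22.8% were called, 9.31% higher and 13.5% lower. The 8 included Ugt8 by -0.54 ± 0.08 (adjusted p = 8.24e-07) and Mog M99485_at by -0.45 ± 0.10. Without iNP rat 11 this count was 5. The 5 that did not pass were Mbp, Mal, Mog L21995_s_at and 2 of the Mag probe sets, with adjusted p from 0.073 to 0.246.

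At the top of the order no probe set call separated neighbouring regions with all arrays in. Between striatum and hippocampus none of the 13 probe sets was called by limma, where 18.2% of all tested were, and 1 had an unadjusted p under 0.05. That one was Mobp D28111_at, at -0.20 ± 0.08 (adjusted p = 0.0933), which passed without the 2 arrays (adjusted p = 0.0410). The intervals of the difference held for Mbp from -0.49 to 0.28, and for Cnp from -0.22 to 0.08.

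Between striatum and accumbens none was called, where 14.1% of all tested were, and 2 had an unadjusted p under 0.05. Those were Mal at 0.21 ± 0.08 and Mog L21995_s_at at 0.20 ± 0.10, of which Mal passed without the 2 arrays (adjusted p = 0.0168). Between hippocampus and accumbens 3 were higher in the hippocampus, where 23.6% were called, 9.63% higher and 14% lower. The 3 were Mal by 0.33 ± 0.08 and the Mobp probe sets D28111_at by 0.28 ± 0.08 and D28111_g_at by 0.25 ± 0.08. Without the 2 arrays this was 5, with Mbp at 0.30 ± 0.10 and Mag M22357_g_at at 0.20 ± 0.07.

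The mean order was hippocampus, striatum, accumbens, cortex, amygdala for 10 of the 13 probe sets. Mog L21995_s_at had the striatum first, and Cnp and Ugt8 had the accumbens before the striatum, all among neighbours that did not differ beyond their spread. The myelin index was 0.39 ± 0.12 (SD, n = 12) in the hippocampus, 0.29 ± 0.11 in the striatum and 0.19 ± 0.06 in the accumbens. It was -0.16 ± 0.21 (n = 11) in the cortex and -0.72 ± 0.31 (n = 12) in the amygdala. The index of the cortex was above that of the amygdala in 11 of 11 rats and below that of the accumbens in 11 of 11. The index of the hippocampus was above that of the striatum in 10 of 12 rats and above that of the accumbens in 11 of 12. The index of the striatum was above that of the accumbens in 9 of 12. These counts were not tested.

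Other genes of mature oligodendrocytes were lower in the amygdala as well. Of a list of 28 such genes that are not members, 11 were on the array and tested, and 10 of these were lower in the amygdala, with a median difference of -0.47 against 0.01 over all tested probe sets. They included Pllp (plasmolipin, a myelin membrane protein) by -0.63 ± 0.05, Gjb1 (the gap junction protein connexin 32) by -0.63 ± 0.09, Qdpr (dihydropteridine reductase) by -0.68 ± 0.06 and Sox10, a transcription factor of the oligodendrocyte lineage, by -0.44 ± 0.09. Nfasc, an adhesion molecule that neurons also make, did not pass at -0.04 ± 0.07. In the hippocampus 8 of the 11 were higher, where 10.8% of all tested probe sets were, with a median of 0.30. The largest of these was Enpp2 (autotaxin), which choroid plexus also makes, by 1.09 ± 0.15.

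Markers of other cells were counted in the same contrast, in which 13.3% of all tested probe sets were higher in the amygdala and 12.8% lower. Of 5 tested genes of oligodendrocyte precursors, 3 were higher in the amygdala, Pdgfra by 0.55 ± 0.08, Ptprz1 by 0.46 ± 0.08 and Cspg5 by 0.29 ± 0.06, while Cspg4 was at 0.11 ± 0.07 and Ncan at -0.20 ± 0.21. The summed linear signal of the 5 ran from 7334 to 10473 in the amygdala and from 5473 to 9228 over the other regions. Of 12 tested genes of cholesterol and fatty acid synthesis, which supply membrane lipid, 1 was higher and none lower, and the median was -0.05.

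Of 9 tested neuronal genes 5 were lower in the amygdala, including the neurofilaments Nefh by -0.82 ± 0.10, Nefm by -0.37 ± 0.11 and Nefl by -0.17 ± 0.05, and 2 were higher, Gap43 and Syp. Their summed signal ran from 52228 to 68321 in the amygdala and from 48852 to 78489 elsewhere. Of 7 astrocyte genes 1 was higher and 1 lower, with a summed signal from 71883 to 89522 against 63094 to 90621 elsewhere. Of 5 microglial genes 2 were higher, C1qb and Aif1, with a summed signal from 2705 to 4663 against 2454 to 4351. No marker of these lists was at 0 on any array. Their part in the amygdala difference of the myelin genes was not tested.

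The preferring and nonpreferring lines did not differ detectably in any member gene. Over all regions, with the rat as the unit, limma called 0 of 13 probe sets, where 2.65% of all tested were called. In that comparison 1 had an unadjusted p under 0.05, Mobp D28110_at, higher in iP by 0.22 ± 0.10 (adjusted p = 0.404). The point estimates were above 0 in 7 and below 0 in 6. The 95% intervals of iP minus iNP were -0.07 to 0.12 for Mobp D28111_g_at, -0.08 to 0.14 for Cnp, -0.07 to 0.23 for Mal and -0.13 to 0.15 for Ugt8. They were wider for Mog M99485_at, -0.03 to 0.28, for Mbp, -0.42 to 0.15, and for Mag X06554cds_s_at, -0.31 to 0.18.

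**Figure D3:**
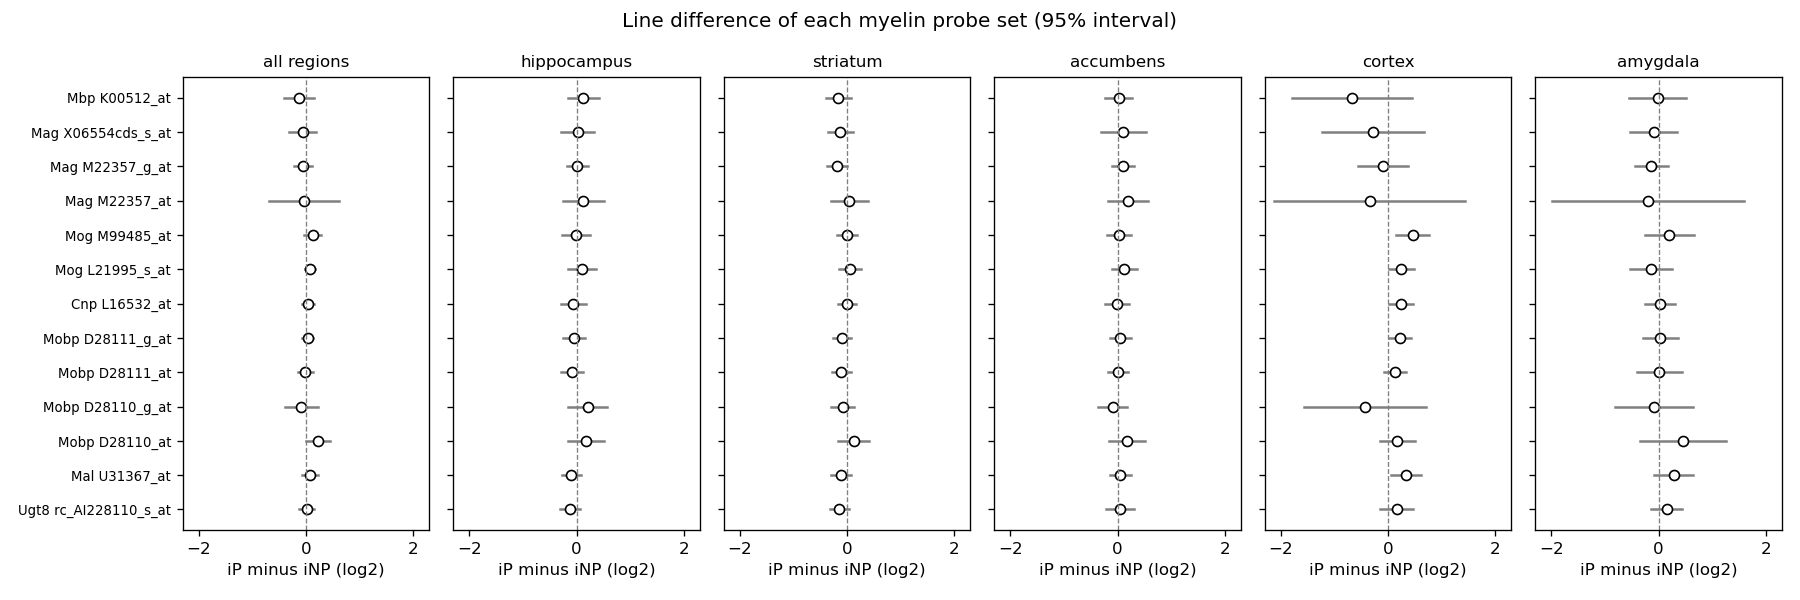
Log2 difference of iP minus iNP with 95% confidence intervals for the 13 tested probe sets, over all regions and in each region. No point passed an adjusted p of 0.05, and the widest intervals were those of Mag M22357_at in the cortex (-2.12 to 1.43) and in the amygdala (-2.0 to 1.59).

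Within single regions none of the 13 was called by limma either. The share of all tested probe sets called was 0.229% in the cortex, 0.839% in the striatum, 0.667% in the hippocampus, 0.725% in the amygdala and 0.572% in the accumbens, and for the line by region term it was 0%. In every region the arrays of the 2 lines overlapped for each of the 13. The overlap was not counted over all tested probe sets, so it does not set the members apart from them. An unadjusted p under 0.05 was reached by 5 probe sets in the cortex, where 5.26% of all tested did, by none in the other four regions, where 7 to 8.75% did, and by 1, Mal, in the line by region term (adjusted p = 0.956).

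The 5 in the cortex were the 2 of Mog and those of Cnp, Mal and Mobp D28111_g_at, each higher in iP by 0.22 to 0.46, with adjusted p of at least 0.53. The largest was Mog M99485_at, which measured 10.83, 10.63, 10.85, 10.90 and 11.30 in iP rats 1 to 5, and from 10.11 to 10.73 (median 10.45) in the 6 iNP rats. The lines overlapped through iP rat 2, and the highest value belonged to iP rat 5, the array with the high Gapdh ratio. The difference was 0.46 ± 0.14 (unadjusted p = 0.00757, adjusted p = 0.530), and 0.36 ± 0.12 (adjusted p = 0.564) without that array. Mag M22357_at turned from -0.35 ± 0.81 to 0.67 ± 0.18 (adjusted p = 0.252) when that array was left out.

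Cortex iP rat 5 divided the members. Mbp measured 12.18 there against 14.92 to 15.72 on the other 10 cortex arrays, Mag M22357_at 4.69 against 8.74 to 10.02, and Mobp D28110_g_at 9.26 against 11.72 to 12.61. Mog M99485_at at 11.30, Cnp at 12.36, Mal at 12.70 and Ugt8 at 11.35 were each above all other cortex arrays. Probe sets of one gene parted on this array, since Mobp D28111_g_at, at 13.94, lay within the range of the others. The index of this array was therefore a mean of values on opposite sides.

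**Figure D4:**
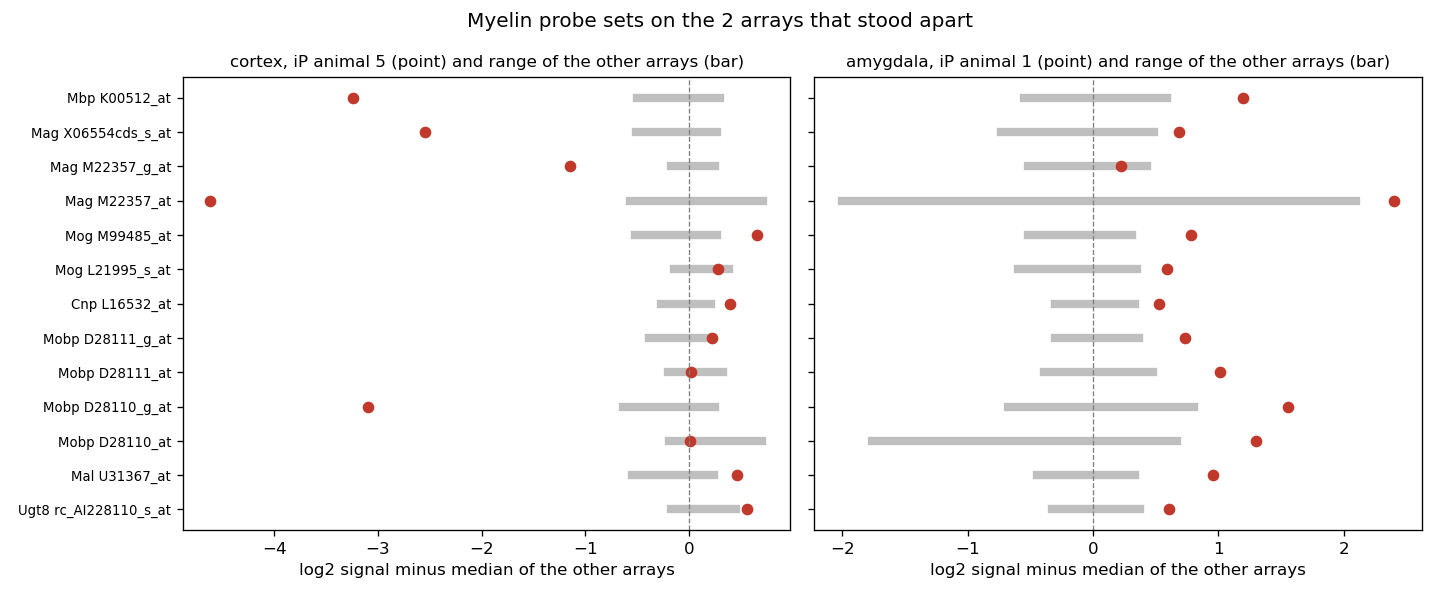
Log2 signal of the 13 tested probe sets on cortex iP rat 5 (left) and amygdala iP rat 1 (right), each as a red point relative to the median of the other arrays of that region, whose range is the grey bar. On the cortex array Mbp lay at -3.24 and Mog M99485_at at 0.66, while all 13 points of the amygdala array lay above the median.

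Amygdala iP rat 1 was high throughout. All 13 probe sets were above the median of the other 11 amygdala arrays, by 0.22 for Mag M22357_g_at to 2.40 for Mag M22357_at, and Mbp was higher by 1.20. Its index of 0.02 compared with -1.07 to -0.39 on the other amygdala arrays. Striatal neuron markers varied among the amygdala arrays too, with a summed signal from 3261 to 14270, against 16279 to 37731 in the striatum. Their part in the spread of the myelin genes was not tested. Without this array and cortex iP rat 5 all 13 probe sets were still lower in the amygdala, with a median of -1.03.

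The members followed each other across arrays. Over the 78 pairs of tested probe sets the correlation over 59 arrays had a median of 0.82 and ran from 0.47 to 0.97; without the 2 arrays that stood apart the median was 0.88 and the range 0.71 to 0.97. After the mean of each region and line was taken out the median was 0.39, with a range from -0.19 to 0.88. These are descriptions, since arrays share rats and regions. The index of one rat in the hippocampus and in its amygdala correlated at r = 0.70 over 12 rats, and the other nine pairs of regions gave r from -0.06 to 0.47. Without the 2 arrays it was 0.42 over 11 rats, and the other nine pairs gave -0.15 to 0.29.

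Among 3167 other genes, each by its brightest tested probe set, the one most like the myelin index over the 59 arrays was Pllp, at r = 0.95 and at 0.85 after group means were taken out. Csrp1, a LIM domain protein, followed at 0.88 (0.70 within groups), then Klk6, a secreted serine protease, at 0.86 (0.42), and Apod, the lipid carrier apolipoprotein D, at 0.86 (0.62). Qdpr at 0.82, Rasgrp1, a Ras activator, at 0.81, Kcnab1, a potassium channel subunit, at 0.80 and Myrf at 0.79 completed the first 8. After group means were taken out Kcnab1 was at -0.03 and Myrf at 0.16. The 4 genes with the most negative values were Syt17 (-0.84), Pnck (-0.83), Alpl (-0.79) and Trim54 (-0.78). An r above 0.8 was reached by 6 genes, and one below -0.8 by 2.

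**Figure D5:**
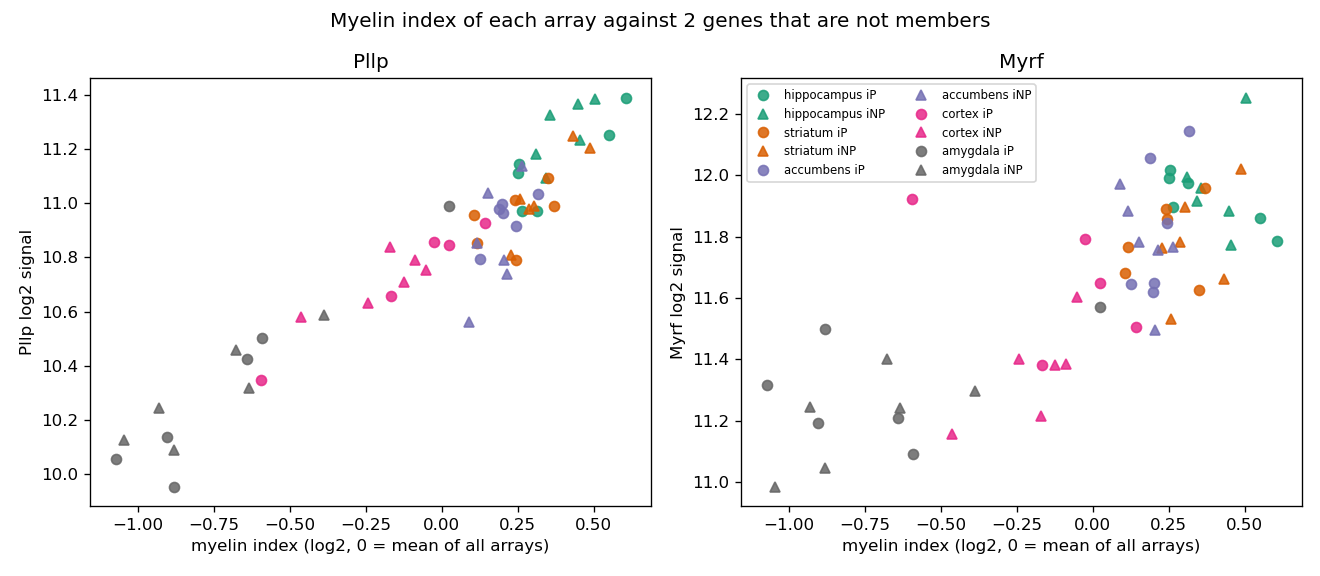
Myelin index of each array (x axis, log2, 0 is the mean of all 59 arrays) against the log2 signal of Pllp (left) and Myrf (right), coloured by region with circles for iP and triangles for iNP. Pllp rose with the index within regions as well as between them (r = 0.95), while the Myrf points separate mainly by region (r = 0.79).

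Myrf itself was lower in the amygdala by -0.50 ± 0.05 (adjusted p = 1.58e-10) and higher in the hippocampus by 0.36 ± 0.05 (adjusted p = 3.81e-07). It was lower in the cortex by -0.20 ± 0.05. Between the lines over all regions it did not differ detectably, at 0.09 ± 0.06 (adjusted p = 0.633). Of the 11 tested genes of the oligodendrocyte list, limma called 1 between the lines over all regions, where 2.65% of all tested probe sets were called. That was Qdpr, higher in iP by 0.22 ± 0.05 (adjusted p = 0.0260). Cryab did not pass, at 0.30 ± 0.08 (adjusted p = 0.0694).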

How the data were processed

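The deposited values are array intensity, 1 linear signal per probe set and array, scaled by the authors to a common trimmed mean as the values show; which program summarised the probes was not stated in the labels. RNA of each rat was labelled and analysed separately, per the labels' protocols, so each rat is a replicate. Signals under 16 were set to 16 and log2 was taken; 59 control probe sets and the dimmest 40% of the others were left out. limma 3.58.1 in R 4.3.3 (lmFit, eBayes with a mean trend) gave differences, standard errors and Benjamini-Hochberg adjusted p over 5244 probe sets. Region comparisons used the rat as a block, since the animal number in the titles marks arrays of 1 rat; line comparisons used a fit per region, and over all regions 1 value per rat adjusted for region. All p-values are two-sided. The fits were checked on simulated data with independent noise on every array and no rat effect, which could not check the rat block. The number of arrays limits the precision.

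The members, gene lists and tests were chosen with earlier results of these data known, so none is independent support. Every member probe set is described; genes most like the members were named by rank, 8 with the highest and 4 with the lowest correlation with the index, and a gene is represented by its brightest tested probe set. Probe sets were named from the platform annotation, in which 7006 of 8740 had 1 symbol, 308 several and 1426 none; those with several were not named. Levels of different probe sets are not comparable. Alternatives were quantile normalization, other filters and floors, array weights, the Gapdh ratio as a covariate, fits without the rat block, and leaving out arrays or rats; leaving out every array nearest another region, and the covariate without the 2 arrays that stood apart, were added after seeing the data. The cortex array of iP rat 6 was not analysed here.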

Additional observations from a re-analysis of the deposited data

Results flagged for a closer look

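Of 80 groups tested for a single distant array (7 genes and the index, by region and line), 5 held one whose gap to its nearest neighbour was large for the range of its group; chance flags about 1 in 20 groups. In the cortex, iP rat 5 measured 12.18 for Mbp, where the other iP rats lay between 14.92 and 15.72, and 9.85 for Mag X06554cds_s_at, where they lay between 12.24 and 12.68. For the same Mag probe set striatum iP rat 2 measured 12.05 against 12.66 to 12.72, and accumbens iP rat 4 measured 11.51 against 12.65 to 12.79. That accumbens array was one of those nearest another region, and its log2 Gapdh ratio of 0.36 was the highest of the accumbens arrays. For Mobp D28111_g_at cortex iNP rat 11 measured 13.33 against 13.62 to 13.75.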

How the results depend on the processing

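The amygdala count of 13 lower and the hippocampus count of 13 higher were the same under every alternative run, and so were the line counts of 0. No called difference reversed (the sign of differences uncalled under both settings was not counted). Cortex against the other four (2 probe sets) gave 4 without the 2 arrays that stood apart, with array weights, with the Gapdh covariate and in the wider exclusion added after seeing the data; leaving out one rat gave 1 to 4 (4 without iP 5, 1 without iNP 11 or iNP 12). Striatum against hippocampus (0) gave 1 without the 2 arrays and in the wider exclusion. Striatum against accumbens (0) gave 1 without the 2 arrays, with array weights and in the wider exclusion. Hippocampus against accumbens (3) gave 5 without the 2 arrays, with the Gapdh covariate and in the wider exclusion, and 3 to 5 leaving out one rat (5 without iP 5). Leaving out one rat gave 5 to 9 for cortex against accumbens (8; 5 without iNP 11), 6 to 9 for the accumbens (9) and 11 to 13 for the striatum (12). The Gapdh covariate without the 2 arrays, also added later, gave 4, 1, 1 and 5 in the comparisons above, in that order up to hippocampus against accumbens. The cause was not tested. With no replicate block the counts were 11 in the striatum and 7 in the accumbens, and 13 in the amygdala; with the rat as a random replicate block the line counts stayed at 0. Of 2860 region differences of single probe sets recomputed this way, 43 lost and 36 gained their call. Dim signal limits the second Ugt8 probe set and Mag M22357_at in the amygdala, and the deposited values carry no detection call that was used here.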
